A study of Homo sapiens with 6 samples.

Results

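The keratin genes encode the intermediate filament proteins of epithelial cells and of hair. Their expression was compared between HT29 cells given a cocoa extract and control HT29 cells. A gene was included where an array probe set carried exactly 1 gene symbol made of KRT, a number and at most 1 further letter, so that the keratin-associated proteins of hair were left out. This gave 44 keratin genes, read by 56 probe sets, of 19775 genes measured. A further 11 protein-coding keratin genes of the RefSeq gene table were not analysed here.

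HT29 is an established human line from a colorectal adenocarcinoma. Of 6 cultures on 100 mm plates in F12 medium with 7% serum, each started from 300000 plated cells, 3 received 500 µg of a polyphenolic cocoa extract (PCE, with no volume given) for 24 h and 3 were controls, which the titles call untreated and the protocol text says were given saline. Total RNA of each culture was read on its own Affymetrix Human Genome U133 Plus 2.0 array. The labels do not say if replicate cultures came from separate days or passages, and a p-value here speaks for these 6 plates alone. Each SE and p-value of limma combines a gene's own spread among the plates with the spread over all genes fitted.

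In the deposited log2 table the median over the 6 arrays had been subtracted from every probe set. The values carry differences between arrays and no level of a gene, so the presence of a keratin in HT29 cells and the order of keratin levels could not be read from them, nor could the colonic identity of the line be checked by presence of its markers. In whole cultures, fewer cells expressing a gene and less RNA per cell cannot be told apart.

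Keratin filaments are built from pairs, each of a type I (acidic) and a type II (basic to neutral) keratin. The filaments run from the nucleus to the desmosomes, the spot-like junctions between cells, and give an epithelium its resistance to strain. Simple epithelia such as the colon use KRT8 and KRT18 with KRT19 and KRT20, while basal, suprabasal and hair cells use other pairs, and the set a cell makes is widely used to tell epithelial types and tumours apart. The type I genes lie in a cluster on chromosome 17 and the type II genes in a cluster on chromosome 12, where KRT18 also lies. Of the 44 measured genes, 24 were type I, of which 23 lie on chromosome 17, and 20 were type II, all on chromosome 12.

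Promoter sequences show how alike neighbouring keratin genes can be. They are given for KRT37, a type I hair keratin and the 1 gene past the test for which the table used here holds a promoter, for KRT38, its close relative among the hair keratins, and for KRT20, a type I keratin of the intestine. Each runs 5′ to 3′ from 250 bases before the gene's start to 50 bases after it, on the minus strand of GRCh38.p14, from RefSeq, at chr17:41424536-41424835 for KRT37, chr17:41440934-41441233 for KRT38 and chr17:40885193-40885492 for KRT20. Capitals mark the motif TATAAA, the core of the TATA box that positions the start of transcription.
KRT37: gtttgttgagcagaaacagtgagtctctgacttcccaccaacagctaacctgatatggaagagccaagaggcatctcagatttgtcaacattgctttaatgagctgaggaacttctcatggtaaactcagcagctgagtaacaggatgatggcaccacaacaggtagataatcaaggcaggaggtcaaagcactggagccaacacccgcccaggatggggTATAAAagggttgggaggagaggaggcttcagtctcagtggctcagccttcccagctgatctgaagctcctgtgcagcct
KRT38: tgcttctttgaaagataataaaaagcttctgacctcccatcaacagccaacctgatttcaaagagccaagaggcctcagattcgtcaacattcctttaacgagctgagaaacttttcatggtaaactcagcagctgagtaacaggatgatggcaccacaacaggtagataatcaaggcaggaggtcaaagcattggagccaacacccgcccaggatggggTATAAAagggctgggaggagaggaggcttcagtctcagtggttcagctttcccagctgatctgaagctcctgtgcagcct
KRT20: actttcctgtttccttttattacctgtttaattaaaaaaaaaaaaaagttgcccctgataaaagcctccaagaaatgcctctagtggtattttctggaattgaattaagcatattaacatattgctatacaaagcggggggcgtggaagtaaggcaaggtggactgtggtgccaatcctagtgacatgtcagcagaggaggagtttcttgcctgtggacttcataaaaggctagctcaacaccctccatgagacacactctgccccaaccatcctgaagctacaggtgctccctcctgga
In KRT37 and KRT38 the motif begins 30 bases before the start, and the 2 sequences hold the same base at 236 of 300 positions (78.7%), with a shared run of 77 bases. The letters TATAAA are not in the KRT20 window. On either strand, TATAAA was found in 21 of 38 promoter entries of 34 keratin genes (55.3%) and in 11.5% of the 35116 promoters of the table. Of these 34 genes, 29 are among the 44 measured. The AP-1 motif TGANTCA, searched on either strand as well, was found in 0 of the 38 keratin entries and in 7.71% of all promoters. These are matches of letters, not sites shown to be used.

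Few keratin genes differed between cocoa and control cells. KRT23 rose, KRT13 and KRT37 fell, and the other 41 did not pass the test, among them the pair KRT8 and KRT18 that forms the filaments of simple epithelia. The 3 called genes are 6.82% of the 44, against 13.5% of all 19775 genes at a limma adjusted p below 0.05 (Benjamini-Hochberg over all genes, the threshold used throughout). In each direction, 1 keratin was higher, against 7.36% of all genes, and 2 were lower, against 6.12% of all genes. The arrays of the groups did not overlap for 6 keratins (13.6%), against 32.5% of all genes, with cocoa above control for KRT23, KRT20 and KRT18 and cocoa below control for KRT13, KRT37 and KRT16.

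The size of the differences was also small. The median log2 difference, cocoa minus control, was −0.017 over the keratins and −0.013 over all genes, and the median size without sign was 0.059 for keratins and 0.099 for all genes. The median SE was 0.086 for keratins and 0.078 for all genes, and the median SD within groups was 0.116 and 0.095. The keratin differences were thus read somewhat less precisely. For 42 of 44 keratins (95.5%) the 95% interval lay within 1.5-fold in either direction, and so did that of 92.8% of all genes. The 3 called genes were all type I, and none of the 20 type II genes passed limma's test. An unadjusted p below 0.05 was found for 0 of these 20, 4 of the 44 keratins and 27.1% of all genes. Whether the 2 types differ was not tested.

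**Figure D1:**
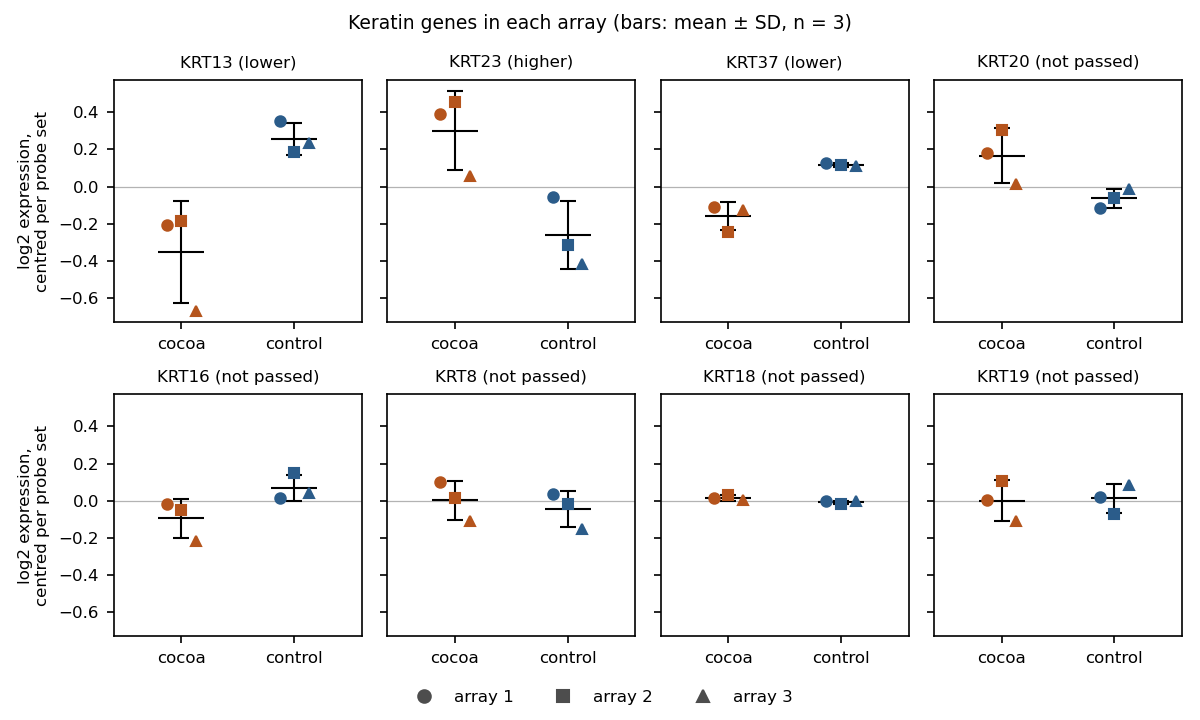
Centred log2 expression of 8 keratin genes in each array, with cocoa left of control. Points are single arrays and bars are the mean ± SD (n = 3). For KRT13 and KRT37 each cocoa array lies below each control array, and for KRT23 each lies above.

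KRT23, a type I keratin of simple epithelia that some colon tumours express, was the called keratin that was higher with cocoa. Its values were 0.39, 0.46 and 0.057 in the cocoa arrays, against −0.057, −0.31 and −0.41 in the control arrays. The 3 cocoa arrays lay above the 3 control arrays, with cocoa array 3 close to control array 1. Means were 0.30 ± 0.21 with cocoa and −0.26 ± 0.18 in controls (SD, n = 3 each). The difference was 1.48-fold, or 0.56 on the log2 scale (SE 0.12, 95% interval 0.29 to 0.84, limma adjusted p = 0.0162). The call was lost without control array 2 (adjusted p = 0.0662), control array 3 (0.0585) or cocoa array 2 (0.0586), while the difference stayed between 0.48 and 0.68. KRT23 was read by a single probe set whose suffix marks possible matches to other transcripts.

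The other simple epithelial keratins did not pass. KRT20, the intestinal type I keratin, had 0.18, 0.31 and 0.014 in the cocoa arrays, against −0.12, −0.062 and −0.014 in the control arrays. The groups did not overlap, but cocoa array 3 and control array 3 nearly met. The difference was 0.23 (SE 0.083, 95% interval 0.043 to 0.42, limma adjusted p = 0.105), and without cocoa array 3 it passed, with an adjusted p of 0.0453. KRT20 and KRT23 are neighbours among the measured keratin genes on chromosome 17.

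KRT8 and KRT18, the type II and type I partners of simple epithelial filaments, were each read by a single probe set. Its suffix marks, for both genes, possible matches to other transcripts. KRT8 had 0.10, 0.015 and −0.11 in cocoa arrays, against 0.035, −0.015 and −0.15 in control arrays. The groups overlapped, and the log2 difference was 0.047 (95% interval −0.13 to 0.23, limma adjusted p = 0.783). KRT18 had 0.013, 0.032 and 0.0026 in cocoa arrays, against −0.0039, −0.020 and −0.0026 in control arrays. Its groups did not overlap, by a narrow margin. Its difference was 0.025 (95% interval −0.11 to 0.16, adjusted p = 0.851). The SD of KRT18 within groups was 0.013 and its SE 0.059, so this interval rests mostly on the spread over all genes. KRT19, a type I keratin of simple and ductal epithelia, differed by −0.012 (95% interval −0.19 to 0.16, adjusted p = 0.949). KRT7, a type II keratin of ducts and glands, differed by −0.075 (95% interval −0.23 to 0.083, adjusted p = 0.569), and its 4 probe sets ran from −0.30 to 0.11. In the probe set at −0.30 each cocoa array lay below each control array (95% interval −0.54 to −0.067, limma adjusted p = 0.122 over all probe sets). A missed threshold does not show that these genes were the same in the 2 groups. The gene intervals give the sizes that these arrays allow for the mean of a gene's probe sets.

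KRT13, the type I keratin of non-cornified stratified mucosae such as the oesophagus, was lower with cocoa. Its values were −0.21, −0.19 and −0.67 in cocoa arrays, against 0.35, 0.19 and 0.23 in control arrays. The groups did not overlap, and cocoa array 3 stood far below the other cocoa arrays. Means were −0.35 ± 0.27 with cocoa and 0.26 ± 0.086 in controls (SD, n = 3 each). KRT13 was 1.53-fold lower, a log2 difference of −0.61 (SE 0.12, 95% interval −0.89 to −0.33, limma adjusted p = 0.0118). Without control array 1 the adjusted p was 0.0501, and in the other 5 fits without 1 array the gene passed. The difference stayed between −0.70 and −0.45. Its single probe set also has a suffix that marks possible matches to other transcripts.

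KRT4, the type II partner of KRT13 in mucosae, did not pass, and its probe sets disagreed. Its difference was −0.064 (SE 0.095, limma adjusted p = 0.744), from probe sets at 0.087 and −0.21. The 14 keratins of suprabasal, mucosal and corneal cells held 1 lower gene, KRT13, and 13 that did not pass. The called share was 7.14%, against 13.5% of all genes called and 6.12% called lower. KRT10, which pairs with KRT1 in the upper epidermis, differed by 0.061 (adjusted p = 0.614), and KRT80, a type II keratin found near desmosomes, by −0.16 (adjusted p = 0.563). The highest difference of the list was 0.17, for KRT9, the type I keratin of palms and soles.

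Keratins of basal cells did not pass. KRT5 and KRT14, the pair of the basal layer of stratified epithelia, differed by −0.021 (limma adjusted p = 0.907) and 0.14 (adjusted p = 0.482), and KRT15, a type I keratin of basal and hair bulge cells, by −0.056 (adjusted p = 0.778). KRT16, which keratinocytes make in wounds and hyperproliferative skin, was the measured stress keratin. It had −0.016, −0.052 and −0.22 in cocoa arrays, against 0.016, 0.15 and 0.043 in control arrays. The arrays did not overlap, but the difference of −0.16 (SE 0.076, limma adjusted p = 0.204) did not pass.

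KRT37, one of the type I keratins of hair, was lower with cocoa, by the smallest difference of the 3. It had −0.108, −0.245 and −0.125 in cocoa arrays, against 0.125, 0.115 and 0.108 in control arrays. The control arrays lay within a narrow range and the cocoa arrays all fell below them. KRT37 was 1.21-fold lower, a log2 difference of −0.28 (SE 0.065, 95% interval −0.42 to −0.13, limma adjusted p = 0.0232). The call was lost without control array 1 (adjusted p = 0.0753), control array 2 (0.0897), control array 3 (0.065) or cocoa array 2 (0.0673), while the difference stayed between −0.30 and −0.23.

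KRT38, whose promoter shares most of its bases with that of KRT37, had −0.30, −0.072 and 0.19 in cocoa arrays, against 0.25, 0.072 and −0.20 in control arrays. The groups overlapped widely. The difference was −0.10 (SE 0.14, 95% interval −0.42 to 0.21, limma adjusted p = 0.718), and whether it differs from that of KRT37 was not tested. The other hair and follicle keratins did not pass. Their differences ran from −0.22, for KRT71, a type II keratin of the inner root sheath, to 0.12, for KRT73, another inner root sheath keratin. Of the 19 measured, KRT37 alone was called (5.26%, against 13.5% of all genes called and 6.12% called lower).

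At probe set level, where the fit was run over 54613 probe sets and 7.98% passed, 2 of 56 keratin probe sets passed. These were those of KRT13 (limma adjusted p = 0.0273) and KRT23 (0.0359), and the probe set of KRT37 did not (0.0632). Of the 44 genes, 35 were read by 1 probe set and 9 by several. In KRT40, a hair keratin, the 2 probe sets gave −0.11 and 0.21.

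**Figure D2:**
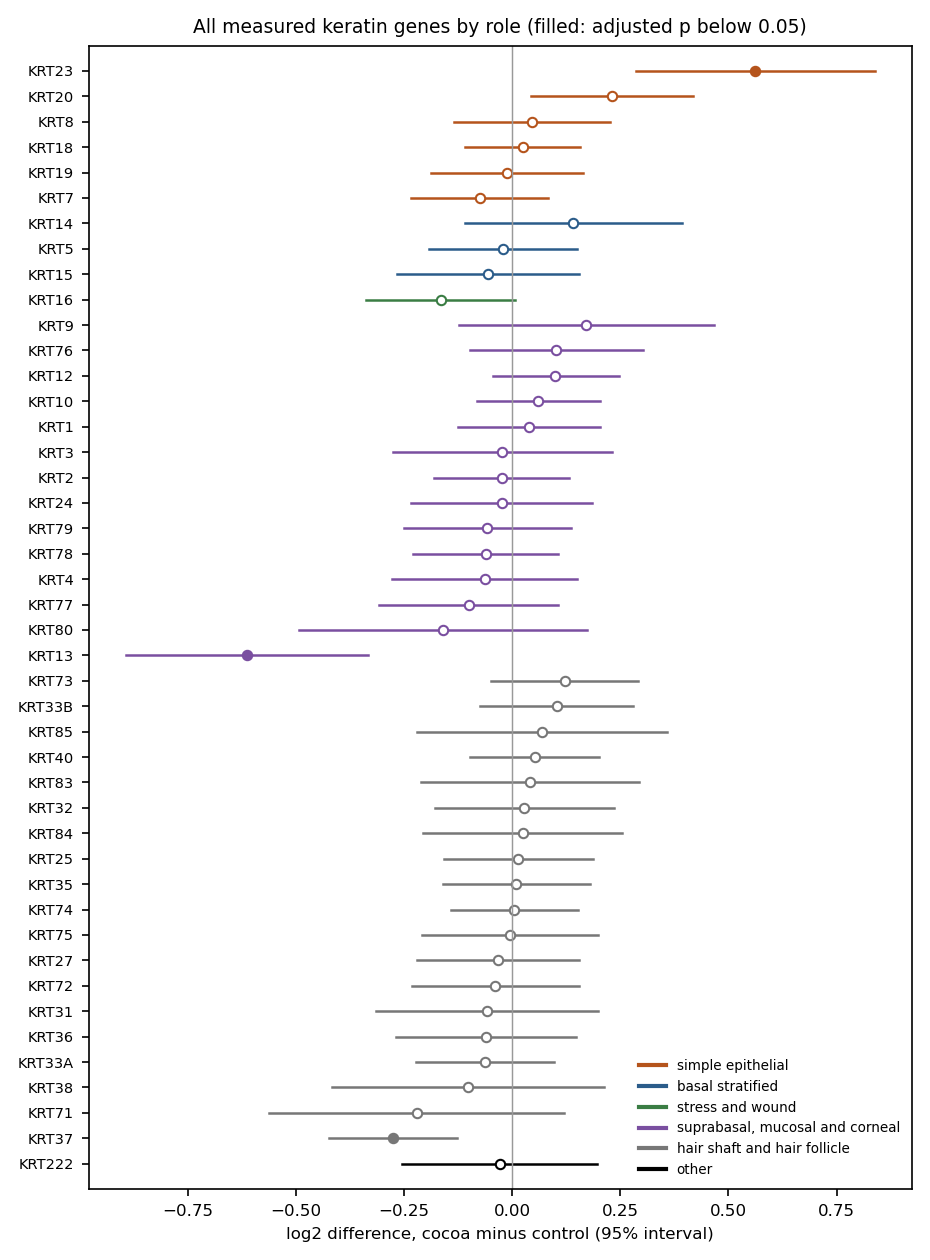
Log2 difference, cocoa minus control, of all 44 keratin genes grouped by role, with 95% intervals. Filled points are past a limma adjusted p of 0.05, and 42 of the 44 intervals lie within 1.5-fold of no difference.

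Measures of RNA and labelling were set beside the calls. The 18S ribosomal signal, from control probe sets, was −0.51, 3.31 and 1.40 in cocoa arrays, against −1.12, 0.51 and −0.53 in control arrays. The 5′ minus 3′ signal of the control genes was 0.032, −0.26 and −0.052 in cocoa arrays, against 0.028, 0.033 and 0.0090 in control arrays. On both measures cocoa arrays 2 and 3 stood outside the control range and cocoa array 1 within it. With the 18S signal as a covariate the limma adjusted p was 0.0755 for KRT13, 0.0811 for KRT23 and 0.142 for KRT37, at log2 differences of −0.59, 0.57 and −0.22. With the 5′ minus 3′ signal it was 0.0922 for KRT23 (difference 0.505) and 0.108 for KRT37 (−0.22), and KRT13 still passed (−0.67, adjusted p = 0.0411). With 6 arrays, these fits leave fewer degrees of freedom, and the part of these signals in the calls was not tested otherwise.

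**Figure D3:**
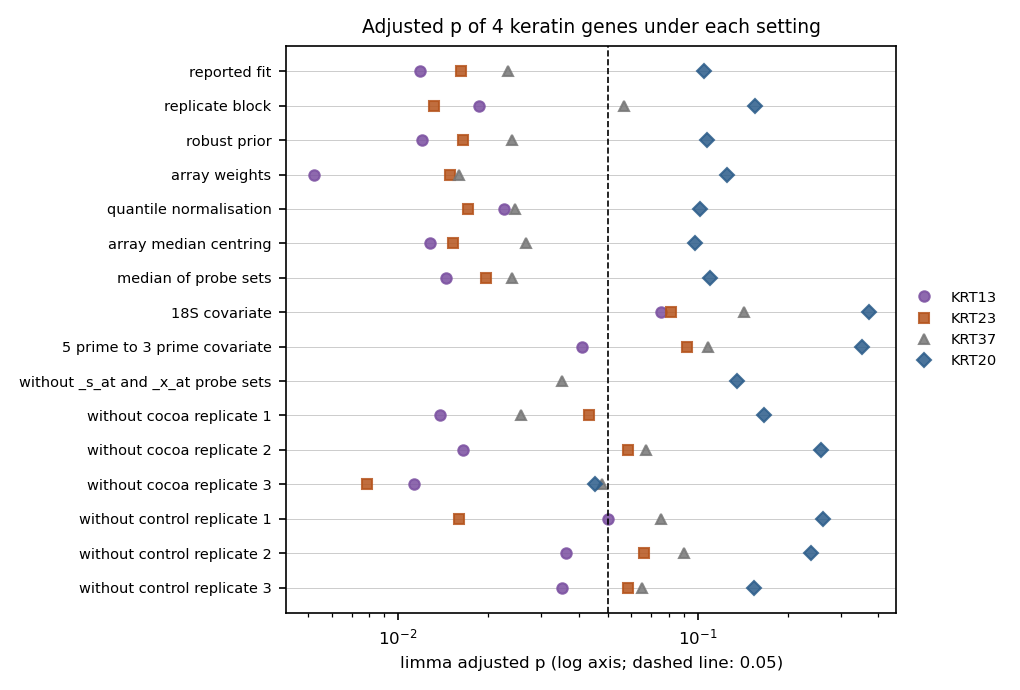
Limma adjusted p (log axis) of KRT13, KRT23, KRT37 and KRT20 under each way of fitting, with the threshold of 0.05 as a dashed line. KRT13 stays past it in 12 of 14 alternatives, KRT23 in 9 of 14 and KRT37 in 8 of 15, while KRT20 passes in 1 of 15.

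Cell type markers were read beside the keratins. None of the 5 fibroblast, 3 endothelial or 3 stratified epithelium markers (KRT5 and KRT14 among the last) passed limma's test, nor did any have an unadjusted p below 0.05. Of the 10 colonic epithelium markers, which include KRT8, KRT18 and KRT20, none passed. An unadjusted limma p below 0.05 was found for 2 of them (CDX1 and KRT20) and for 27.1% of all genes. Of 3 leukocyte markers, CD14, a bacterial lipopolysaccharide co-receptor, was 1.68-fold higher (0.75, SE 0.11, adjusted p = 0.00321), while PTPRC and CD3D differed by 0.010 and −0.13. The mean over the leukocyte markers was 0.029, 0.066 and 0.12 in cocoa arrays, against −0.044, −0.11 and −0.26 in control arrays. The mean over the colonic markers was 0.070, 0.042 and −0.011 in cocoa arrays, against −0.046, −0.025 and −0.024 in control arrays. For both lists each cocoa array lay above each control array. Among single genes this held for CD14 alone of the 3 leukocyte markers and for 3 of the 10 colonic markers. The arrays of the groups did not overlap, in either direction, for 32.5% of all genes. The mean over the stratified markers overlapped, with −0.029, 0.016 and 0.061 in cocoa arrays, against 0.062, −0.13 and −0.081 in control arrays. The part of any of these in the keratin results was not tested.

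Genes that work with keratins, and those of other intermediate filaments, were read from 5 lists. These held 63 symbols, of which LOR and LORICRIN name the same gene. Of the 57 genes measured, 8 passed (14.0%, against 13.5% of all genes), 2 higher and 6 lower. The share is close to that of all genes. The lists held anchors of filaments at desmosomes, other intermediate filament proteins, cornified envelope proteins, keratin partners and transcription factors.

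Keratin partners and regulators held 4 called genes of 12 (33.3%, against 13.5% of all genes), and each of the other lists held 1 (6.67% to 11.1%). The lists were chosen with earlier results of these data known, and the part of that choice in these shares was not tested. No list was tested as a whole. TRIM21, a ubiquitin ligase that is an antibody receptor of the cytosol, had 0.45, 0.28 and 0.19 in cocoa arrays, against −0.26, −0.20 and −0.19 in control arrays. The groups were far apart, and it was 1.44-fold higher (0.52, SE 0.078, limma adjusted p = 0.00279). SFN, the 14-3-3 protein of epithelial cells that binds phosphorylated partners, had −0.10, −0.25 and −0.29 in cocoa arrays, against 0.23, 0.19 and 0.11 in control arrays. It was 1.31-fold lower (−0.39, SE 0.073, adjusted p = 0.00828). PPP2R5A, a regulatory subunit of protein phosphatase 2A, differed by −0.38 (SE 0.066, adjusted p = 0.00637), and PNN, a protein of desmosomes and of RNA splicing, by −0.35 (SE 0.086, adjusted p = 0.0255). The 5 probe sets of PNN disagreed, and ran from −0.54 to 0.027. TRIM21, SFN and PPP2R5A passed in all 6 fits without 1 array and PNN in 2 of 6. With the 18S covariate TRIM21 passed (adjusted p = 0.0126), and SFN, PPP2R5A and PNN did not (0.0674, 0.053 and 0.148).

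Among 10 plakins and desmosomal anchors, PKP2, a plakophilin that links desmosomal cadherins to the filaments, was lower. It had −0.042, −0.37 and −0.27 in cocoa arrays, against 0.20, 0.23 and 0.042 in control arrays, so that its groups lay apart by less than their spread. The difference was −0.38 (SE 0.095, limma adjusted p = 0.0273). DSP, the plakin that ties keratin to the desmosome, differed by 0.19 (SE 0.14, adjusted p = 0.461), and did not pass. Neither did JUP (0.20, adjusted p = 0.143) nor PPL (0.19, adjusted p = 0.179), where each cocoa array lay above each control array. Of the 10 differences, 5 were positive and 5 negative.

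Among 15 other intermediate filament proteins, BFSP1, filensin of the lens, was 1.30-fold higher (0.38, SE 0.095, limma adjusted p = 0.0288). VIM, the vimentin of mesenchymal cells, differed by 0.10 (95% interval −0.051 to 0.26, adjusted p = 0.391) and did not pass. Its 2 probe sets gave 0.19 and 0.019, and neither passed. Among 9 measured cornified envelope genes, LORICRIN, a main protein of the envelope of the skin, was lower (−0.40, SE 0.095, adjusted p = 0.0247). Of the 9 differences, 5 were positive and 4 negative. IVL, of the same list, lay above control in each cocoa array but did not pass (0.25, adjusted p = 0.051). Among 11 measured transcription factors tied to keratin genes, OVOL2, a zinc finger factor of epithelial identity, was lower (−0.40, SE 0.080, adjusted p = 0.0108), and its 2 probe sets gave −0.70 and −0.11. Of the 11 differences, 6 were positive and 5 negative, and none of the positive ones passed. BFSP1, LORICRIN and PKP2 passed in 2 of 6 fits without 1 array and OVOL2 in 5 of 6. With the 18S covariate none of the 4 passed (limma adjusted p = 0.174 for BFSP1, 0.159 for LORICRIN, 0.177 for PKP2 and 0.0852 for OVOL2), nor did any with the 5′ minus 3′ covariate (0.14, 0.128, 0.13 and 0.0576 in the same order). BFSP1 and LORICRIN have 1 probe set each, which did not pass in the fit over all probe sets (adjusted p = 0.0631 and 0.0554).

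**Figure D4:**
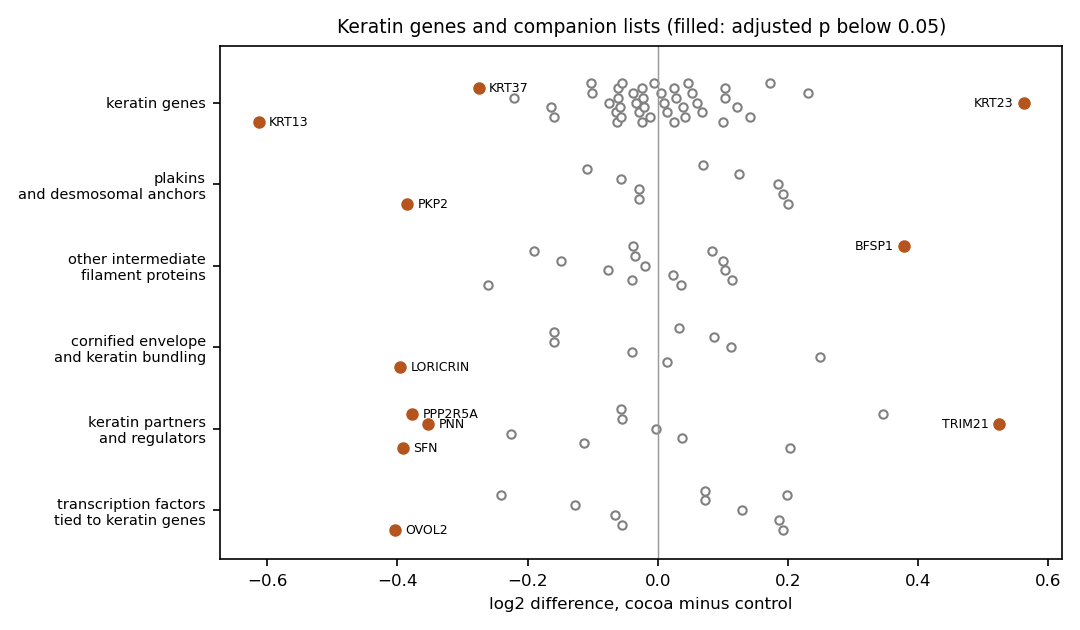
Log2 difference, cocoa minus control, of each measured keratin and of each gene of the 5 companion lists. Filled, named points are past a limma adjusted p of 0.05, 3 of 44 keratins and 8 of 57 companions.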

How the data were processed

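RNA of 6 HT29 cultures was purified with a column kit, labelled with biotin and read on Affymetrix HG U133 Plus 2.0 arrays, per the labels' protocols. The authors obtained the deposited log2 values by RMA, per the submitters' processing notes. GeneSpring GX is named in the series text. The sources used here give no versions. The largest absolute median of a probe set over the 6 arrays was 5e-07, so the values were centred per probe set. Arrays have no read depth, and their number limits the precision.

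Of 54613 probe sets, 41091 carried 1 symbol, 1801 several and 11721 none in the platform annotation. Probe sets with 1 symbol were averaged within a gene, and all 44 keratins matched the RefSeq table by gene ID. Cocoa minus control was fitted over all 19775 genes with limma 3.58.1 (lmFit, eBayes) in R 4.3.3, two-sided. The steps were tested on simulated data. Between arrays, the SD of the difference was 0.174 to 0.198 among cocoa arrays and 0.140 to 0.161 among controls, and no 2 arrays were copies.

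The members and lists were chosen with earlier results of these data known. Named were all called keratins, 18 keratins of which 13 were measured, the called genes of each list (at most 4) and VIM. KRT4, KRT9, KRT38, KRT40, KRT71, KRT73, CD14, PTPRC, CD3D, DSP, JUP, PPL and IVL were named after their values were seen. Alternatives are given in the closing section.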

Additional observations from a re-analysis of the deposited data

How the results depend on the processing

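KRT13, KRT23 and KRT37 kept the direction of their difference in every alternative that measured them. The called keratin genes, 3 of 44, numbered 3 with a robust prior, array weights, quantile normalisation, array median centring or the median of probe sets. In these fits 12.8% to 16.7% of all genes were called. The called keratins numbered 1 of 36 without probe sets of suffix _s_at or _x_at (KRT37), where KRT13 and KRT23 had no probe set left. There, 10.6% of all genes were called. They numbered 1 with the 5′ to 3′ covariate (KRT13), 1 at 1.5-fold or more (KRT13), and 1 to 4 in fits without 1 array. Limma called 0 with the 18S covariate, where 3 had an unadjusted p below 0.05, and 0 at an adjusted p below 0.01, where 4 had. Of all 19775 genes, 4253 had an unadjusted limma p below 0.05 in the 18S fit and 5368 in the reported fit. Of keratin probe sets, 2 of 56 were called, and 0 with the 18S and 0 with the 5′ to 3′ covariate (5 with an unadjusted p below 0.05 in each fit of limma), and 0 to 2 without 1 array. Over all probe sets, the share called is given for the reported fit alone (7.98%). The companion genes called, 8 of 57, numbered 5 of the 45 that were left without _s_at and _x_at probe sets. They numbered 1 with the 18S covariate, 3 with the 5′ to 3′ covariate and 4 to 9 without 1 array. Of all genes, 2666 were called, 1103 with the 18S covariate, 1411 with the 5′ to 3′ covariate, 1152 at an adjusted p below 0.01, 446 at 1.5-fold or more and 1315 to 2881 without 1 array. Apart from genes left without a probe set, the cause of these changes was not tested.

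Same-numbered arrays did not deviate together (correlations of deviations −0.12, −0.0089 and −0.0031), so the numbers were not taken as pairs. With the replicate block, 2 keratin genes (KRT13 and KRT23), 1 keratin probe set, 7 companion genes and 1947 of all genes were called, and KRT37 had a limma adjusted p of 0.0565.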

Other observations

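Transcripts related to keratin genes were read by further probe sets. KRT10-AS1, annotated as antisense to KRT10, differed by 0.0035 between cocoa and control (limma adjusted p = 0.987 over all probe sets). The 2 probe sets of the pseudogene KRT8P12 gave 0.095 and 0.021, and that of KRT19P2 gave 0.074. A probe set that carries both KRT34 and a second symbol, and was therefore not used for a gene, gave −0.030 (adjusted p = 0.926). None of these passed, and none had an unadjusted p below 0.05 in limma.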
